A study of Mus musculus with 8 samples.

Results

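The 42 genes described here encode the transport machinery and the dynein motors of cilia. They were taken from the table of 25343 genes as the protein-coding genes whose symbols begin with Ift, Bbs, Dnah, Dnai, Dnal or Dnaaf followed by a digit. The rule gave 14 Ift, 8 Bbs, 14 Dnah, 0 Dnai, 2 Dnal and 4 Dnaaf genes, and it used no measured value. In the main test, genotypes were compared for 39 of the 42, which reached a normalized count of 10 in 4 or more of the 8 libraries. They were among 18203 genes of the table that met this minimum.

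RNA came from hair cells of the mouse cochlea, the sensory receptors of hearing, sorted by Atoh1-GFP, a fluorescent reporter of the hair cell transcription factor Atoh1. The knockout (Ndp KO) lacked Ndp, the gene of the secreted signalling protein norrin, and the other mice were wild type. Both groups were postnatal day 4 to 6 mice on a mixed C57BL/6 and 129 background, with 4 libraries per genotype, and 12 to 20 sensory epithelia were pooled for each library. The labels do not give the structure of the Ndp allele, and they do not say how pools relate to litters, so the spread behind the p-values is that between libraries and may be technical.

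A hair cell of the young cochlea carries a kinocilium, a true cilium that stands beside the actin-based stereocilia of the hair bundle and is lost as the mouse cochlea matures. Cilia are built by intraflagellar transport (IFT), in which trains of IFT-B and IFT-A complexes are carried toward the tip by kinesin and back by a cytoplasmic dynein. The BBSome, a coat-like complex of Bbs proteins, rides on these trains and moves membrane proteins, while axonemal dyneins, assembled in the cytoplasm with Dnaaf proteins, are the arms that make motile cilia beat.

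The libraries held 35836310 to 44893293 reads in the knockout and 35077950 to 48329827 in wild type, recovered as whole numbers from the deposited normalized counts. The targeted gene separated the genotypes. Ndp had 10.5, 22.6, 66.8 and 45.1 normalized counts in knockout replicates 1 to 4, against 174, 90.4, 114 and 206 in wild-type replicates 1 to 4, with no overlap between the genotypes. The log2 difference of Ndp was -2.20 ± 0.56 (SE), and limma gave it an adjusted p of 0.895. Summed over 16 hair cell marker genes, knockout libraries held 441865 to 519393 normalized counts and wild-type libraries 425296 to 467726. RNA of other cells was also present, since 14 supporting cell markers summed to 245955 to 326262 in the knockout and 198616 to 398072 in wild type. In bulk samples, fewer cells of a type and less RNA per cell cannot be told apart.

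None of the ciliary genes was called between the genotypes. At an adjusted p under 0.05 in limma, 0 of 39 were called, beside 0.00549% of all 18203 genes tested. At an unadjusted p under 0.05, 3 of the 39 (7.69%) stood out in limma, beside 5.57% of all genes. All 3 (Dnah8, Dnah2 and Bbs2) were higher in the knockout, a direction in which 3.1% of all genes passed, and 0 were lower, beside 2.47%. The edgeR test called 0 members, beside 0% of all genes, and had 3 at an unadjusted p under 0.05, beside 4.55% of all genes. These were all higher in the knockout, beside 2.21% of all genes, and 0 were lower, beside 2.33%. DESeq2, run on all 42 members with no minimum count, called 0 of them, beside 0.136% of the 25078 genes it gave a p-value. By DESeq2, 4 members had an unadjusted p under 0.05, beside 6.09%. All 4 were higher, beside 3.07%, and 0 were lower, beside 3.01%.

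The differences lay on both sides of 0, with 19 positive (48.7%, beside 52.5% of all genes) and 20 negative. The median log2 difference of the 39 genes was -0.0065, and that of all 18203 genes was 0.016. For 0 of the 39 did all knockout libraries lie on the same side of all wild-type libraries, beside 3.04% of all genes. The 95% interval of the log2 difference lay within 1 of 0, that is within a 2-fold change either way, for 28 of the 39 (71.8%), beside 57.8% of all genes. These 28 were all 14 Ift genes, 7 of the 8 Bbs genes (all but Bbs10), both Dnal genes, all 4 Dnaaf genes and, of 11 tested Dnah genes, Dnah14 alone.

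**Figure D1:**
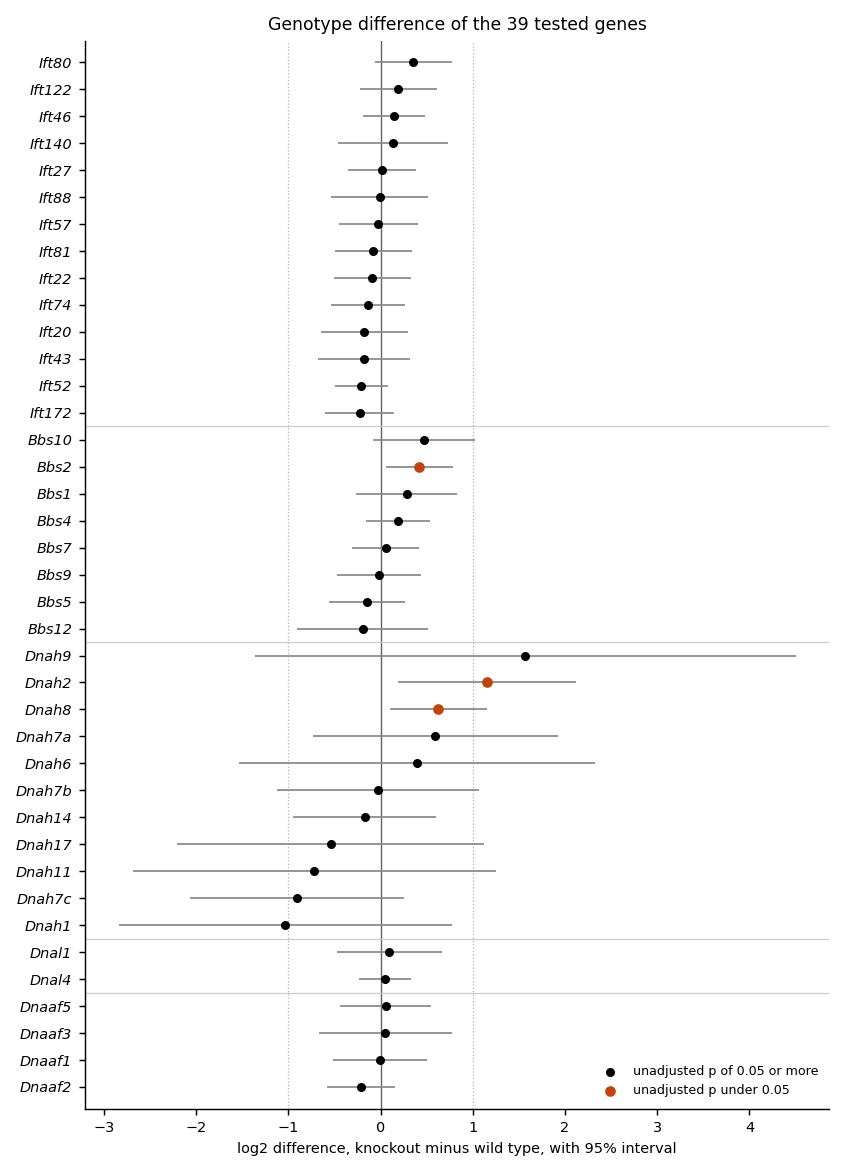
Log2 difference (knockout minus wild type, horizontal axis) of each of the 39 tested genes with its 95% interval from limma, grouped by family from Ift at the top to Dnaaf at the bottom. Orange points mark the 3 genes with an unadjusted p under 0.05, dotted lines mark log2 differences of -1 and 1, and the intervals of the Dnah genes are the widest.

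The IFT genes were among the most abundant of the 42, and none had an unadjusted p under 0.05 in limma. The 14 together held 35728, 39176, 33948 and 37646 normalized counts in knockout replicates 1 to 4, against 35898, 36568, 41452 and 36557 in wild-type replicates 1 to 4, and these sums overlapped. Of the 14, 5 had a positive and 9 a negative difference, 0 had an unadjusted p under 0.05 in limma, and the log2 differences ran from -0.23 (Ift172) to 0.35 (Ift80).

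IFT-A carries cargo back to the cell body, and its 3 members Ift43, Ift122 and Ift140 had a median log2 difference of 0.13. Ift122, a core subunit, had the highest mean of all 42 genes, with 5924, 6822, 5728 and 5235 normalized counts in the knockout against 4141, 6567, 6488 and 4052 in wild type. Its log2 difference was 0.19 ± 0.19 (SE), smaller than the spread of the wild-type libraries, of which replicates 1 and 4 were low. Ift140, another core subunit, averaged 2391 ± 448 in the knockout and 2274 ± 815 in wild type (SD, n = 4 each).

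IFT-B carries cargo outward, and its 11 members had a median log2 difference of -0.078, with 3 positive and 8 negative. Ift172, the largest IFT-B subunit, had 5044, 4198, 4160 and 5738 normalized counts in the knockout against 4907, 5292, 7373 and 4963 in wild type. Without wild-type replicate 3, the highest library, its log2 difference was -0.091 in place of -0.23 ± 0.17 (SE). Ift80, a peripheral IFT-B subunit, had 3213, 3209, 3858 and 3767 normalized counts in the knockout against 2531, 3778, 2906 and 2016 in wild type. Wild-type replicate 2 lay within the knockout range and the other wild-type libraries below it, and the log2 difference was 0.35 ± 0.19 (SE), for which limma gave an adjusted p of 0.916.

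Ift22, which encodes a small GTPase of the complex, averaged 4114 ± 576 in the knockout and 4444 ± 1067 in wild type (SD, n = 4 each). Ift20, whose protein also serves at the Golgi apparatus, averaged 2353 ± 293 in the knockout and 2733 ± 787 in wild type (SD, n = 4 each). Ift81, which with Ift74 binds tubulin, averaged 2286 ± 358 in the knockout and 2435 ± 563 in wild type (SD, n = 4 each). Ift88, a subunit whose loss in mice disturbs the kinocilium and the orientation of hair bundles, was the least abundant IFT gene, with 623, 507, 609.9 and 500.4 normalized counts in the knockout against 388, 801, 625 and 510.4 in wild type. Its log2 difference was -0.0096 ± 0.24 (SE). The smallest standard error among the IFT genes was that of Ift52, a core IFT-B subunit, at 0.13 with a log2 difference of -0.21.

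**Figure D2:**
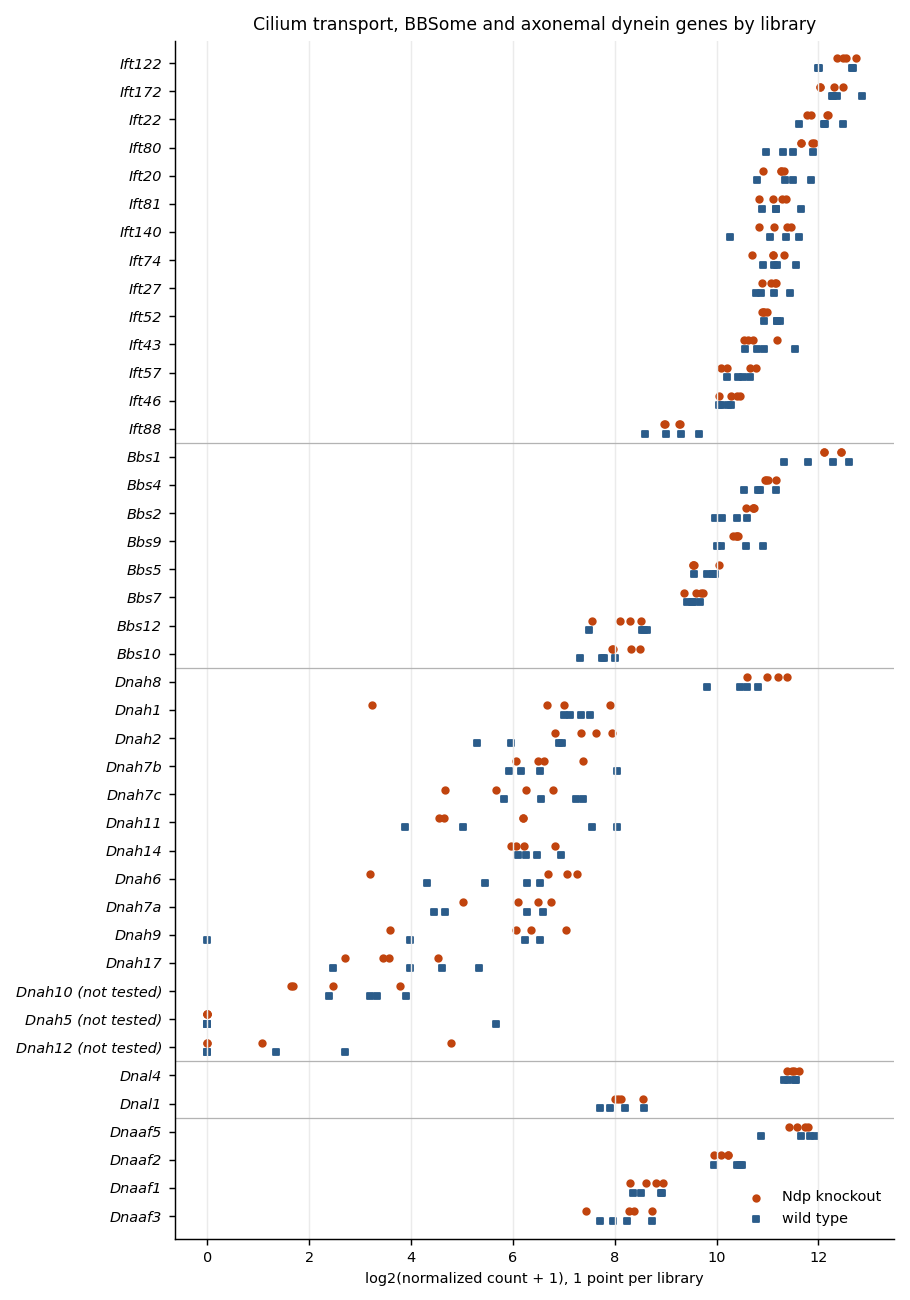
Log2(normalized count + 1) of each of the 42 genes (rows, by family and then by mean) in each library, with orange circles for the 4 knockout libraries and blue squares for the 4 wild-type libraries. The Ift, Bbs, Dnal and Dnaaf genes form narrow clusters in which the genotypes overlap, whereas most Dnah genes are low and spread over several log2 units.

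Of the 8 Bbs genes, 6 BBSome subunits and 2 chaperonin-like assembly genes, 5 were positive (62.5%, beside 52.5% of all genes), with a median log2 difference of 0.12. The 8 together held 12695, 11736, 13080 and 11469 normalized counts in the knockout, against 9533, 12898, 13181 and 8414 in wild type. Wild-type replicates 1 and 4 were low and replicates 2 and 3 lay in or just above the knockout range, so the sums overlapped.

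Bbs2 (ENSMUSG00000031755, chromosome 8, 94067954 to 94098928, minus strand, mm10), a core BBSome subunit, had 1690, 1712, 1681 and 1532 normalized counts in knockout replicates 1 to 4, against 1102, 1542, 1359 and 1005 in wild-type replicates 1 to 4. The lowest knockout library lay just below the highest wild-type library, and these were the only values to cross. Its log2 difference was 0.42 ± 0.17 (SE), with an unadjusted p of 0.0289 and an adjusted p of 0.895 in limma. Leaving out 1 library at a time gave log2 differences of 0.32 to 0.53. The unadjusted p rose above 0.05 without knockout replicate 1, 2 or 3 and without wild-type replicate 1 or 4. In the pair of libraries whose titles carry the same date (replicate 2 of each genotype), the log2 difference was 0.15.

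Bbs1, the subunit that meets the GTPase Arl6, was the most abundant BBSome gene. It had 5572, 4444, 5547 and 4419 normalized counts in the knockout against 3547, 4987, 6166 and 2544 in wild type, and the wild-type libraries lay both above and below the knockout range. Bbs4, a subunit that binds centriolar satellite proteins, averaged 2089 ± 135 in the knockout and 1857 ± 332 in wild type (SD, n = 4 each). Bbs9 averaged 1330 ± 36.9 in the knockout and 1392 ± 421 in wild type (SD, n = 4 each), so its knockout libraries were nearly equal while its wild-type libraries ran between 1030 and 1929. Bbs5, a subunit that binds membrane lipids, and Bbs7, a core subunit, had log2 differences of -0.15 ± 0.19 and 0.053 ± 0.16 (SE). The chaperonin-like genes Bbs10 and Bbs12, whose proteins assemble the BBSome, had log2 differences of 0.47 ± 0.25 and -0.19 ± 0.32 (SE).

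The axonemal dynein heavy chain genes set Dnah8 apart from all others. Per kilobase of transcript, Dnah8 averaged 107 normalized counts over the 8 libraries, while the next heavy chain, Dnah1, averaged 10.5, and the median of the 14 was 6.09. Transcripts of this family are long, from 12.0 to 16.7 kb (the annotated transcript with the longest coding sequence). By the same measure the Ift genes had a median of 951 and the Bbs genes 461 normalized counts per kilobase. Their transcripts are shorter, and how evenly transcripts of unlike length were covered was not tested. In no library was another heavy chain as high as Dnah8.

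Dnah8 (ENSMUSG00000033826, chromosome 17, 30624354 to 30875264, plus strand, mm10) encodes an outer arm heavy chain best known from sperm tails. It had 2356, 1550, 2684 and 2035 normalized counts in knockout replicates 1 to 4, against 1403, 1799, 1552 and 895 in wild-type replicates 1 to 4. Knockout replicate 2 was as low as wild-type replicate 3, wild-type replicate 4 was the lowest of all, and the groups overlapped. Its log2 difference was 0.63 ± 0.24 (SE), with an unadjusted p of 0.0249 and an adjusted p of 0.895 in limma. In the libraries of the shared title date the direction turned, with a log2 difference of -0.22, and without both of those libraries it was 0.91. Leaving out 1 library at a time gave 0.42 to 0.78. The unadjusted p rose above 0.05 without knockout replicate 1 or 3 or wild-type replicate 4, and without the last the log2 difference was 0.42.

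Dnah2 (ENSMUSG00000005237, chromosome 11, 69420809 to 69549110, minus strand, mm10) encodes an inner arm heavy chain. It had 160, 247, 112 and 198 normalized counts in the knockout against 119, 61.2, 38.2 and 124 in wild type, and knockout replicate 3 lay below wild-type replicates 1 and 4. The log2 difference was 1.15 ± 0.44 (SE), with an unadjusted p of 0.0238 and an adjusted p of 0.895 in limma. Its value was 1.997 in the pair of the shared title date and 0.82 to 1.38 with 1 library left out. The unadjusted p rose above 0.05 without knockout replicate 2 or 4 and without wild-type replicate 2 or 3.

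The 14 heavy chain genes together held 3188, 2797, 3311 and 2776 normalized counts in the knockout, against 2339, 2571, 2465 and 1824 in wild type. These sums did not overlap, but Dnah8 made up 55.4% to 81.1% of them in the knockout and 49.1% to 70.0% in wild type. Dnah8 and Dnah2 were the 2 of 11 tested heavy chains with an unadjusted p under 0.05 in limma, and 5 of the 11 were positive and 6 negative. The other heavy chains varied several-fold within each genotype. Dnah1, an inner arm heavy chain, had 8.43, 240.3, 128 and 100.1 normalized counts in the knockout against 181, 161, 139 and 127 in wild type. Knockout replicate 1 was far below the rest, and the log2 difference was -1.04 ± 0.82 (SE) with all libraries and -0.046 without that one. Dnah11, an outer arm heavy chain, had 72.7, 72.6, 22.6 and 24.2 in the knockout against 264, 13.7, 186 and 31.4 in wild type, with a log2 difference of -0.72 ± 0.89 (SE).

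The remaining outer arm heavy chains were low. Dnah9, an outer arm heavy chain of airway cilia, had 65.4, 130.4, 80.3 and 11.0 normalized counts in the knockout against 0, 73.9, 14.8 and 91.9 in wild type. Dnah5, the outer arm heavy chain most often mutated in human primary ciliary dyskinesia, was at 0 in 7 of 8 libraries, where 3 reads would have been 2.34 to 3.49 normalized counts, and at 49.6 in wild-type replicate 1. It was left out of the main limma fit and of edgeR, as were Dnah10 and Dnah12. Around the minimum, Dnah10 reached 10 normalized counts in 2 libraries and was left out, and Dnah17 reached it in 5 and was kept with a mean of 16.3.

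**Figure D3:**
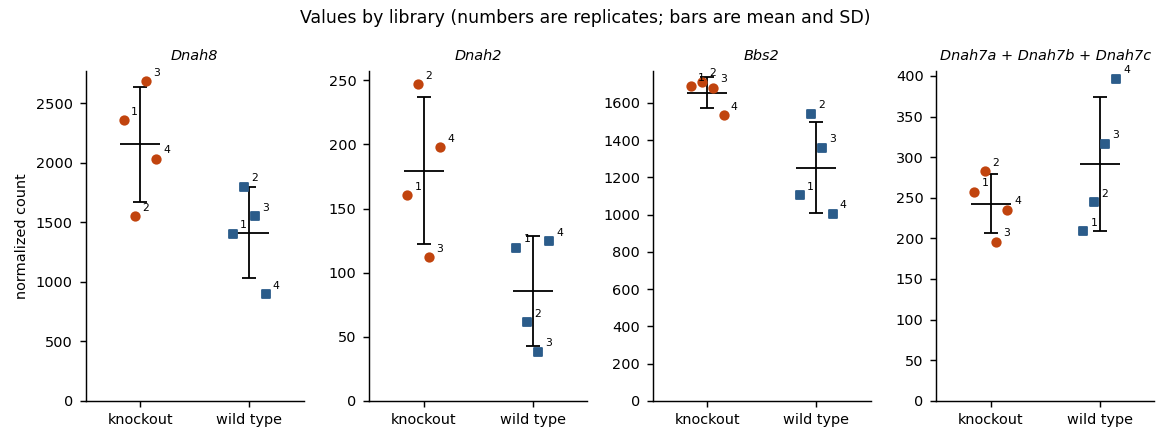
Normalized counts of Dnah8, Dnah2, Bbs2 and the sum of Dnah7a, Dnah7b and Dnah7c by library (vertical axis, from 0), with knockout left of wild type, replicate numbers beside the points, and bars for mean and SD (n = 4). The genotypes overlap in all 4 panels, and wild-type replicate 4 is the lowest library for Dnah8 and Bbs2 and the highest for the Dnah7 sum.

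Dnah7a, Dnah7b and Dnah7c, inner arm heavy chains, are near-copies on chromosome 1 and their single values are uncertain. Over 12075 aligned coding bases Dnah7a and Dnah7b were 97.0% identical, Dnah7a and Dnah7c 96.8% and Dnah7b and Dnah7c 97.3%, and the longest run shared by all 3 was 217 bases. Of the distinct 31-base words in their annotated transcripts, 54.2% for Dnah7a, 40.1% for Dnah7b and 61.6% for Dnah7c also occur in transcripts of another gene. The window with many differences shown here, coding bases 1226 to 1285 of Dnah7a (chromosome 1, 53397006 to 53706784, minus strand) and Dnah7c (46425592 to 46807476, plus strand) and 1358 to 1417 of Dnah7b (46066315 to 46373546, plus strand), counted from the start codon in GENCODE M21 on GRCm38, is the kind of stretch by which a read can be given to its own gene. Capitals mark the 16 positions at which the 3 are not all alike.
Dnah7a: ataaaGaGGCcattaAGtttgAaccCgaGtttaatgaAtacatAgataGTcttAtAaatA
Dnah7b: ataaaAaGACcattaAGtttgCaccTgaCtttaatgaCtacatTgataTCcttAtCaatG
Dnah7c: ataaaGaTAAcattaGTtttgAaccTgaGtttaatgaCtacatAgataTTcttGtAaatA

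The 3 copies had log2 differences of different sign. Dnah7c had 24.2, 110, 75.8 and 49.5 normalized counts in the knockout against 92.9, 164, 150.5 and 55.8 in wild type, with a log2 difference of -0.91 ± 0.53 (SE). Dnah7a had a difference of 0.59 ± 0.60 and Dnah7b of -0.030 ± 0.50 (SE). Their sum, which does not depend on how shared reads were divided among them, was 257, 282, 196 and 235 in the knockout against 209, 245, 317 and 396 in wild type, and the groups overlapped.

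None of the 2 light chain and 4 assembly factor genes had an unadjusted p under 0.05 in limma. Dnal4, a dynein light chain gene, had the highest level per kilobase of the 42, at 2826 normalized counts per kilobase over the 8 libraries. This rank rests on the transcript chosen, which is 1.01 kb long, while all annotated exons of Dnal4 cover 2.39 kb. It had 2843, 3155, 2671 and 2945 normalized counts in the knockout against 2971, 2707, 3019 and 2549 in wild type, and its log2 difference of 0.047 ± 0.13 (SE) had the narrowest interval of the 39, from -0.23 to 0.33. Dnal1, whose protein binds an outer arm heavy chain, averaged 294 ± 56.4 in the knockout and 279 ± 75.0 in wild type (SD, n = 4 each).

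Dnaaf5, a HEAT-repeat assembly factor, averaged 3185 ± 366 in the knockout and 3172 ± 910.1 in wild type (SD, n = 4 each), and its log2 difference was 0.054 ± 0.22 (SE). Dnaaf1, a leucine-rich repeat assembly factor, averaged 412 ± 78.4 in the knockout and 414 ± 79.3 in wild type (SD, n = 4 each). Dnaaf3 averaged 309 ± 104 in the knockout and 295 ± 93.2 in wild type (SD, n = 4 each). Dnaaf2, which works with heat shock protein chaperones on dynein heavy chains, had a log2 difference of -0.21 ± 0.17 (SE). Its count is uncertain, since 71.1% of its 31-base words also occur in transcripts of other genes, among them 9330151L19Rik, an overlapping RNA on the other strand. The library kits do not mark the strand, so reads of Dnaaf1 and the overlapping Taf1c likewise cannot be told apart over 19.8% of its words.

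Per kilobase the families overlapped in level, except that all heavy chains other than Dnah8 lay below the other families. By the same transcript length Dnal4, Ift43, Ift20 and Ift27 stood at the top. They had 2872 ± 200.3, 2263 ± 493, 2062 ± 257 and 2124 ± 176 normalized counts per kilobase in the knockout (SD, n = 4), against 2781 ± 220.2, 2616 ± 814, 2395 ± 690 and 2132 ± 457 in wild type. In the knockout Dnal4 lay above Ift20 and Ift27 by more than their SDs, while in wild type the spreads of these genes overlapped. All 14 Ift genes lay above all heavy chains, with Ift88, the lowest, at 185 over the 8 libraries and Dnah8 at 107. The Ift transcripts are 0.783 to 5.49 kb long and the heavy chain transcripts 12.0 to 16.7 kb. How evenly transcripts of such unlike length were covered was not tested, so ranks between these families are a description. Among heavy chains below Dnah8, the highest were Dnah1, Dnah2, Dnah7b and Dnah7c, at 10.5, 9.67, 9.15 and 7.40 per kilobase over the 8 libraries. Differences among them were not tested.

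The median coefficient of variation over 41 genes, all but Dnah5, which was at 0 in the knockout, was 18.9% in the knockout and 27.0% in wild type, and it was larger in wild type for 29 of them. Wild-type replicate 4 was the lowest of all 8 libraries for 9, and wild-type replicate 3 the highest for 7, of the 29 genes with a mean of at least 200.

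Part of this spread followed transcript length. Over those 29 genes, the Spearman correlation across genes between transcript length and a library's deviation from the gene's mean log2 value was 0.35, -0.41, 0.53 and 0.17 in knockout replicates 1 to 4, and -0.51, 0.40, 0.31 and -0.56 in wild-type replicates 1 to 4. It had the same sign over 11132 genes of the table with the same minimum, at 0.19, -0.21, 0.17 and 0.07 in the knockout and -0.35, 0.32, 0.45 and -0.45 in wild type. Genes are not independent replicates, and these values are given as a description. In wild-type replicate 4 the 5 genes under 2 kb had a median deviation of 0.38 and the 5 of at least 5 kb, Dnah8 and Bbs1 among them, of -0.82, where all genes of those lengths had 0.28 and -0.25.

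With each library's length trend subtracted, an analysis added after seeing the data, limma still called 0 members, and 5 (beside 6.84% of the 14695 genes in that fit) had an unadjusted p under 0.05, of which 4 (beside 3.85%) were higher in the knockout. Dnah8 then had a log2 difference of 0.71 ± 0.22 (SE), Bbs2 of 0.38 ± 0.13, Dnah2 of 1.21 ± 0.51, Ift80 of 0.28 ± 0.13 and Ift172 of -0.30 ± 0.14. The part of the length trend in the differences was not tested further.

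**Figure D4:**
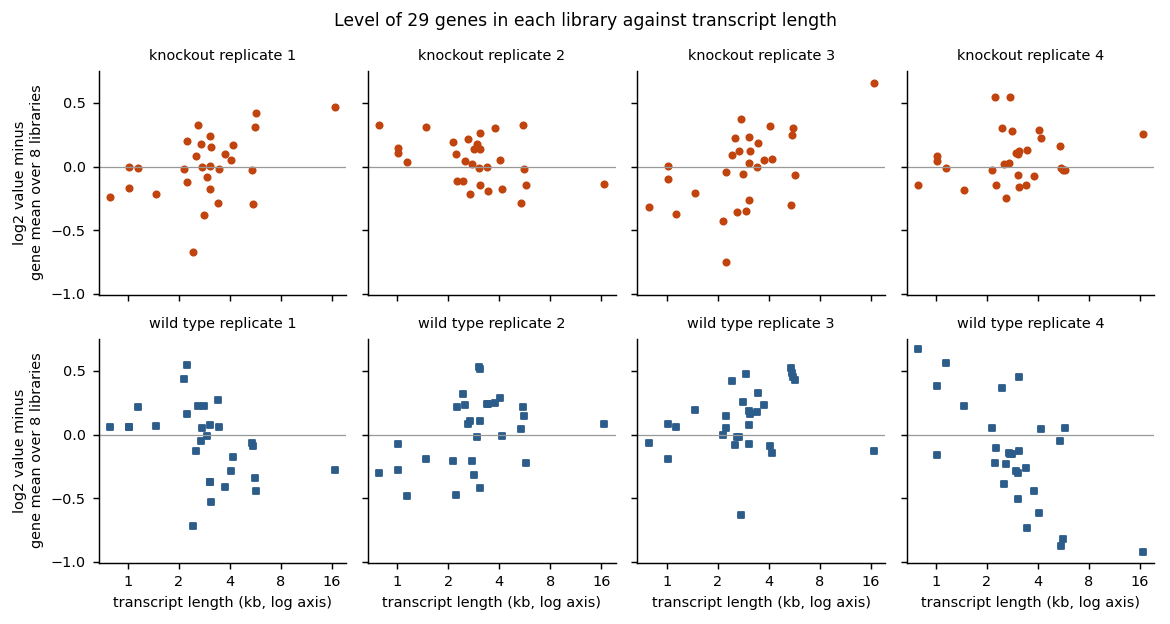
Deviation of each gene's log2 value from its mean over the 8 libraries (vertical axis) against transcript length in kb (horizontal log axis) for the 29 genes with a mean of at least 200, with 1 panel per library, knockout in the upper row and wild type in the lower. Wild-type replicate 4 has 0.67 for Ift43, the shortest transcript, and -0.93 for Dnah8, the longest.

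Markers of hair cells and of other cells were set beside these values, and limma called 0 of them. At an unadjusted p under 0.05, which 5.57% of all genes passed, 3 of 14 supporting cell markers were lower in the knockout (Sox2, Hes5 and Hey1) and 3 of 16 hair cell markers higher (Tmc1, Ocm and Slc26a5). Of 12 macrophage markers 5 were higher by that measure, with a median log2 difference of 1.54 over the list and sums of 3937 to 6133 normalized counts in the knockout and 2121 to 5148 in wild type. Of 11 mesenchyme markers 3 were higher, with a median of 0.66 and sums of 23147 to 41874 in the knockout and 20367 to 27308 in wild type. Of 6 tested endothelial markers 1 was higher, with a median of 1.43 and sums of 189 to 327 in the knockout and 92.2 to 197 in wild type. None of the 8 proliferating cell markers passed, and all 8 were positive with a median of 1.40. Their sums were 5070, 498, 839 and 419 in knockout replicates 1 to 4 and 1532, 569, 221 and 170 in wild-type replicates 1 to 4. Only knockout replicate 1 lay above the wild-type range. The sums of these 4 lists overlapped between the genotypes. Of 7 tested neuron markers 1 was lower and of 7 glia markers 0 passed, with medians of 0.016 and 0.23. Of 10 markers of motile ciliated cells, which carry full sets of dynein arms, 6 were in the table. They summed to 4718 to 5493 in the knockout and 3398 to 7179 in wild type. Of the 5 tested, 0 passed, 2 were positive and 3 negative, with a median of -0.20. Deup1, a gene of centriole amplification, was the only 1 of the 6 with a mean under 10. It averaged 9.88 in the knockout and 8.43 in wild type. The part of these cells in the values of Dnah8, Dnah2 and Bbs2 was not tested.

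In 8 lists of genes that work with the 42 but carry other names (transport motors, IFT and BBSome genes of other symbols, transition zone, arm docking and assembly, axoneme, ciliary transcription factors and cytoplasmic dynein) 107 genes were tested and limma called 0, while 3 (2.80%) had an unadjusted p under 0.05, beside 5.57% of all genes. Foxn4, a transcription factor of multiciliated cells, was higher in the knockout, with 50.6, 73.6, 76.7 and 49.5 normalized counts against 0, 21.9, 32.0 and 32.5 in wild type, a log2 difference of 2.30 ± 1.02 (SE) that takes in a wild-type library at 0. Ccdc114, an outer arm docking gene, was lower, with 320.5, 361, 473 and 565 in the knockout against 711, 466, 651 and 752 in wild type and a log2 difference of -0.60 ± 0.24 (SE). Dync1h1, the heavy chain of cytoplasmic dynein, was lower at -0.57 ± 0.23 (SE), with 3225 ± 638 in the knockout and 4862 ± 1466 in wild type (SD, n = 4 each). For none of these 3 was the adjusted p in limma under 0.05.

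List medians ran from -0.18 to 0.19. The lowest was that of 24 genes of the ruler, nexin link, radial spokes, central pair and tektins, 18 of them negative. Spag6l, a central pair gene, averaged 4571 ± 532 in the knockout and 5129 ± 214 in wild type, and Tekt1, a tektin gene, 3489 ± 220 in the knockout and 3985 ± 407 in wild type (SD, n = 4 each). The transition zone list, the gate at the base of the cilium, had 6 positive and 14 negative genes and a median of -0.074. Tmem216, a membrane protein gene of that list, averaged 4440 ± 456 in the knockout and 3917 ± 288 in wild type (SD, n = 4 each). Kif3a and Kifap3, a motor and the accessory subunit of the kinesin that drives outward transport, had log2 differences of -0.13 ± 0.14 and 0.073 ± 0.17 (SE).

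Of 9 tested IFT genes of other symbols 7 were positive, with a median log2 difference of 0.16, and of 8 BBSome genes of other symbols 6 were positive, with a median of 0.050, and 0 of either list had an unadjusted p under 0.05 in limma. Wdr35 and Ttc30b, subunits of IFT-A and IFT-B, had log2 differences of 0.086 ± 0.18 and 0.26 ± 0.16 (SE), and Arl6 and Lztfl1, which govern BBSome movement, of 0.090 ± 0.13 and 0.039 ± 0.14. Cfap298 and Wdr78, from the arm docking and assembly list, had 0.090 ± 0.13 and -0.042 ± 0.15. The shared light chain genes Dynll1 and Dynlt1b had -0.16 ± 0.32 and 0.011 ± 0.22 (SE).

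Foxj1, the master regulator of motile cilium genes, had 1294, 1263, 1128 and 1099 normalized counts in the knockout against 1016, 814, 1995 and 719 in wild type. Its wild-type libraries lay on both sides of the knockout libraries, and the log2 difference was 0.19 ± 0.28 (SE). Rfx7, of the RFX family of factors that bind the promoters of many ciliary genes, averaged 1092 ± 240 in the knockout and 1108 ± 357 in wild type (SD, n = 4 each). Rfx3, a family member with an established role in ciliogenesis, averaged 898 ± 197 in the knockout and 937 ± 434 in wild type (SD, n = 4 each).

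RefSeq promoters (GRCm38.p6, 250 bases before to 50 after the gene start) were matched for 38 of the 42 genes, all but Ift80, Ift81, Ift122 and Dnaaf1. The RFX half-site GTTGCC, searched on both strands, occurred in 14 of the 38 (36.8%), where 14.1% of 27025 genes hold it. The near-copies Dnah7a, Dnah7b and Dnah7c are among the 14 and are counted separately. The X-box consensus, the full RFX site of which the half-site can be the first arm, occurred in 26 of the 38 (68.4%), where 37.9% of genes hold it. Both motifs were chosen after other motifs had been tried on these promoters, and the members' promoters had a median GC content of 56.3% against 52.7% for all promoters, so no test is attached. Half-sites also began after the gene start, 42 bases on in Bbs5, 21 in Ift88, 10 in Dnah10 and 1 in Bbs1. These are not printed. Windows around 6 other half-sites, a selection, are printed on the strand of the gene with the half-site, or its reverse complement, in capitals. Of these 6, 5 are upstream and that of Ift172 is at the gene start. They are from the transport genes Ift57, Ift140 and Ift172, the BBSome gene Bbs7 and the near-copies Dnah7a and Dnah7c. They lie at chr16:49699190-49699229 (plus strand), chr17:25015960-25015999 (plus), chr5:31291092-31291131 (minus), chr3:36613488-36613527 (minus), chr1:53706962-53707001 (minus) and chr1:46425282-46425321 (plus).
Ift57: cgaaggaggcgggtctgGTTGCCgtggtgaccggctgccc
Ift140: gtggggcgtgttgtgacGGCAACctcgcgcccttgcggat
Ift172: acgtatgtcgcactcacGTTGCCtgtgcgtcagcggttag
Bbs7: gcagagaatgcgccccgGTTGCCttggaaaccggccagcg
Dnah7a: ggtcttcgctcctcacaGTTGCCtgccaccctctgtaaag
Dnah7c: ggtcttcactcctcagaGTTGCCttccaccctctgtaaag

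The half-site did not separate the genes by genotype difference. The 13 tested genes with it had a median log2 difference of -0.0096, from -0.91 (Dnah7c) to 0.59 (Dnah7a). The near-copies Dnah7a, Dnah7b and Dnah7c are counted separately among these 13. The 22 tested genes without it had a median of 0.015, from -1.04 to 1.57.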

How the data were processed

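RNA of sorted hair cells was sequenced in 4 Ndp KO and 4 wild-type libraries made with SMART-Seq v4 and Nextera XT, per the labels' protocols. The authors deposited 1 table, whose signal columns are normalized counts, gene counts divided by a size factor per library. It also holds the authors' log2 fold changes and p-values from DESeq2, per the file headers, whose values are not printed here. Salmon 0.14.2, DESeq2 1.26.0, bcl2fastq 2.20 and the build mm10 appear without roles in the submitters' processing notes. Whole reads were recovered from the smallest step of each column, and all 202744 values (100%) came out whole to within 1e-06, though this does not show whether reads were counted or estimates rounded.

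The main test was limma 3.58.1 (R 4.3.3) with an intensity trend on log2(normalized count + 1), two-sided, with Benjamini-Hochberg adjustment over 18203 genes and a threshold of 0.05. Differences are knockout minus wild type on that scale. The added 1 draws changes of low genes toward 0, yet limma differences of low genes were not always the smaller ones. For Dnah1 the log2 difference was -1.04 in limma, -0.35 in edgeR and -0.35 in DESeq2. For Dnah9 it was 1.57, 0.66 and 0.67 in the same order, and for Dnah11 -0.72, -1.37 and -1.37. Alternatives were other pseudocounts, minima and scalings, edgeR 4.0.16 and DESeq2 1.42.0 on recovered reads, leaving out libraries, and removal of a length trend. The limma and edgeR calculations were run on simulated counts with known changes, and those of DESeq2 and of the length trend were not. Lengths, shared words and coding alignments (MAFFT 7.526) used GENCODE M21, which held 25332 of the 25343 gene IDs.

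The members and gene lists were chosen with earlier results of these data known. Genes named by rule were Ndp, members with an unadjusted p under 0.05 or with genotypes that do not overlap, the 6 most abundant members per family, and in the other lists the 2 most abundant genes and those with an unadjusted p under 0.05; other genes named were chosen after their values were seen. A gene that this rule took is not reported here. Groups came from the genotype labels, and replicate numbers follow accession order. Floors of 3 reads cover counting error only, since no molecular identifiers mark PCR copies.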

Additional observations from a re-analysis of the deposited data

Results flagged for a closer look

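In 7 of 83 groups of 4 libraries, 1 library stood apart from the other 3 by a gap beyond Dixon's 95% critical value, which chance gives in about 1 group in 20. Bbs5 had 1061 normalized counts in knockout replicate 2 and 737 to 755 in the other knockout libraries. Ift20 had 1917 in knockout replicate 3 and 2469 to 2553 in the others. Dnah12, which was left out of the main limma fit, had 26.5 in knockout replicate 2 and 0 to 1.10 in the other knockout libraries.

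In wild type, Ift172 had 7373 normalized counts in replicate 3 and 4907 to 5292 in the others. Bbs12 had 179 in replicate 1 and 370 to 398 in the others. Dnah7b had 264 in replicate 4 and 59.3 to 91.9 in the others, and its reads cannot be told apart from those of its copies over much of its length. Dnah5, also left out of that fit, had 49.6 in replicate 1 and 0 in the others. The causes were not tested.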

How the results depend on the processing

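No member was called under any of 18 alternatives with a test. No paired analysis was possible, since the labels pair no libraries and only replicate 2 of each genotype shared a title date. Replicate numbers follow accession order. With all libraries limma called 1 gene of the table, which was no member. It called 0 at a pseudocount of 0.1, at a minimum of 50, without both libraries of the shared title date and with the length trend removed. The edgeR test called 0 and DESeq2 34 genes, and leaving out 1 library gave 0 to 2, the 2 without knockout replicate 2. Members with an unadjusted p under 0.05 numbered 3 in the main limma fit, 5 with the length trend removed (beside 6.84% of genes) and 1 to 4 with 1 library left out (beside 3.39% to 9.37%), the 1 without knockout replicate 1. Not all of these were higher in the knockout. Without wild-type replicate 4, only 1 of the 4 was higher, and Dnaaf2 (-0.34) and Dnah7c (-1.21) were among those lower. Without knockout replicate 2, 1 of the 2 was higher, and Dnah7c (-1.22) was lower. In the other fits with 1 library left out, all were higher. Members whose genotypes did not overlap numbered 0 with all libraries, 10 without both libraries of the shared date (beside 14.8% of all genes) and 0 to 4 with 1 library left out: 2, 3 and 1 without knockout replicates 2, 3 and 4, and 2, 4 and 2 without wild-type replicates 1, 2 and 4. The shares of all genes without overlap were 4.34% to 9.35% with 1 library left out. The median log2 difference was -0.0065, 0.15 in the pair of the shared date and -0.018 to 0.055 with 1 library left out. Ndp stayed between -2.59 and -1.74, with a lowest adjusted p of 0.129 in DESeq2.

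Of 24 named members, 6 kept their sign under all alternatives run, and 18 did not. In the pair of the shared date alone, which has no replicate, the log2 difference turned for Bbs1 (-0.17), Bbs4 (-0.19), Bbs5 (0.50), Bbs7 (-0.32), Dnaaf1 (0.45), Dnaaf5 (-0.43), Dnah1 (0.58), Dnah11 (2.32), Dnah7b (0.15), Dnah8 (-0.22), Ift20 (0.52), Ift22 (0.56), Ift80 (-0.24) and Ift81 (0.19). Without both of those libraries it turned for Bbs9 (0.15), Dnaaf3 (-0.12) and Dnal4 (-0.011). For Dnaaf5 it was -8.44e-05 in edgeR and -0.000525 with the length trend removed, and for Dnah7b 0.0069 with that trend removed. With 1 library left out, the log2 difference ran over 0 for Bbs9 (-0.15 to 0.15), Dnaaf1 (-0.11 to 0.12), Dnaaf3 (-0.13 to 0.31), Dnaaf5 (-0.18 to 0.17), Dnah7b (-0.28 to 0.43), Dnal1 (-0.040 to 0.25), Ift22 (-0.25 to 0.045) and Ift81 (-0.19 to 0.067). The causes were not tested.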
